A study of Saccharomyces cerevisiae with 18 samples.

Results

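The genes described here encode the machinery that moves proteins between the endoplasmic reticulum (ER) and the Golgi apparatus in the yeast Saccharomyces cerevisiae. A fixed list of 39 gene symbols was matched to the symbols of the array's probe sets, and all 39 were found, each with 1 probe set, among the 5449 S. cerevisiae genes tested on 5498 probe sets. The list holds 9 genes of the COPII coat, 10 of cargo receptors, 9 of vesicle tethering and fusion, 7 of the COPI coat, and 4 of Arf GTPase-activating proteins and retrieval receptors.

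COPII is the coat that buds vesicles from the ER: the GTPase Sar1 recruits an inner layer of Sec23 and Sec24, and an outer cage of Sec13 and Sec31 then bends the membrane. Transmembrane receptors load cargo into these vesicles, a Rab GTPase and a long tether catch them at the Golgi, and SNARE proteins fuse them. COPI-coated vesicles run the other way and return escaped ER proteins and the receptors themselves. Most secreted proteins of yeast take this route, and a secretory leader directs a foreign enzyme into it.

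Messenger RNA was measured on 18 Affymetrix Yeast Genome 2.0 arrays, 1 per batch culture, in 6 groups of 3 cultures that the labels call biological replicates. Strain AAC carried an amylase gene behind the alpha factor leader under the TPI1 promoter and is labelled as the high producer. Strain AAP carried the same leader and amylase under the TEF1 promoter and is labelled as producing less. Strain NC carried a plasmid with the TPI1 promoter and no amylase. All strains shared the host CEN. PK 530-1C, in which TPI1 is deleted, and a 2 µm plasmid with the POT1 marker. Each was grown without oxygen (anaerobic) and with oxygen (aerobic) in 500 ml cultures at 30 °C and 600 rpm, sampled near an optical density of 1. The 6 groups were thus anaerobic AAC, AAP and NC and aerobic AAC, AAP and NC. The promoter and the amylase level differ together between AAC and AAP, and between AAP and NC, so they cannot be told apart in these pairs. The labels do not say whether a strain is more than 1 transformant.

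Values are log2 signals per probe set, so a difference of 1 is a doubling, and the level of 1 probe set is not set against that of another. A gene is said to rise, fall or be called where limma's test gave an adjusted p under 0.05 over all 5498 probe sets. Array medians ran from 7.08 to 7.13, and all 39 members lay above background on all 18 arrays, background being the 95th percentile of 1746 fission yeast probe sets, 5.54 to 5.59 by array. The TPI1 gene, deleted in the host, was below that level on all arrays, at 5.23 to 5.52, and POT1 is the fission yeast gene for the same enzyme. Signals of the fission yeast tpi1 probe set were 9.74, 10.50 and 9.53 in anaerobic AAC, 12.45, 12.48 and 12.42 in anaerobic AAP, and 7.29, 6.42 and 6.43 in anaerobic NC. In aerobic cultures they were 9.32, 9.41 and 8.97 in AAC, 12.42, 12.38 and 9.24 in AAP, and 6.17, 6.35 and 6.20 in NC. The strains therefore also differ in the signal of this marker gene, and its part in the strain differences was not tested. The array labelled AAP aerobic replicate 3 thus goes against its label: it lies with the AAC arrays, and its mean correlation over all tested probe sets was 0.978 with the other aerobic AAP arrays and 0.993 with the aerobic AAC arrays. For the main fit, called members are given with that array and with it left out, as counts or as the genes that change.

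Growth without oxygen was the condition that moved most of these genes. Averaged over the strains, 26 of the 39 members rose in anaerobic against aerobic cultures and 1 fell, and 12 did not pass the test. Over all probe sets 61.6% were called in this comparison, 31.2% as higher and 30.4% as lower, so the members' 66.7% called higher stands beside a background of 31.2%, and their 2.56% called lower beside 30.4%. The median log2 difference was 0.16 over the members and 0.00 over all probe sets, and 36 of 39 members lay above 0. An array reads a transcript relative to the rest of the RNA, so a larger share and more RNA per cell cannot be told apart. The rises were small: the highest was 1.42-fold, for ERV29. With the array labelled AAP aerobic replicate 3 left out, 25 members rose and 1 fell, beside 66.8% of all probe sets called either way. SFB2 and EMP46 then joined the risen ones, and SEC18, SEC26 and GLO3 left them.

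**Figure D1:**
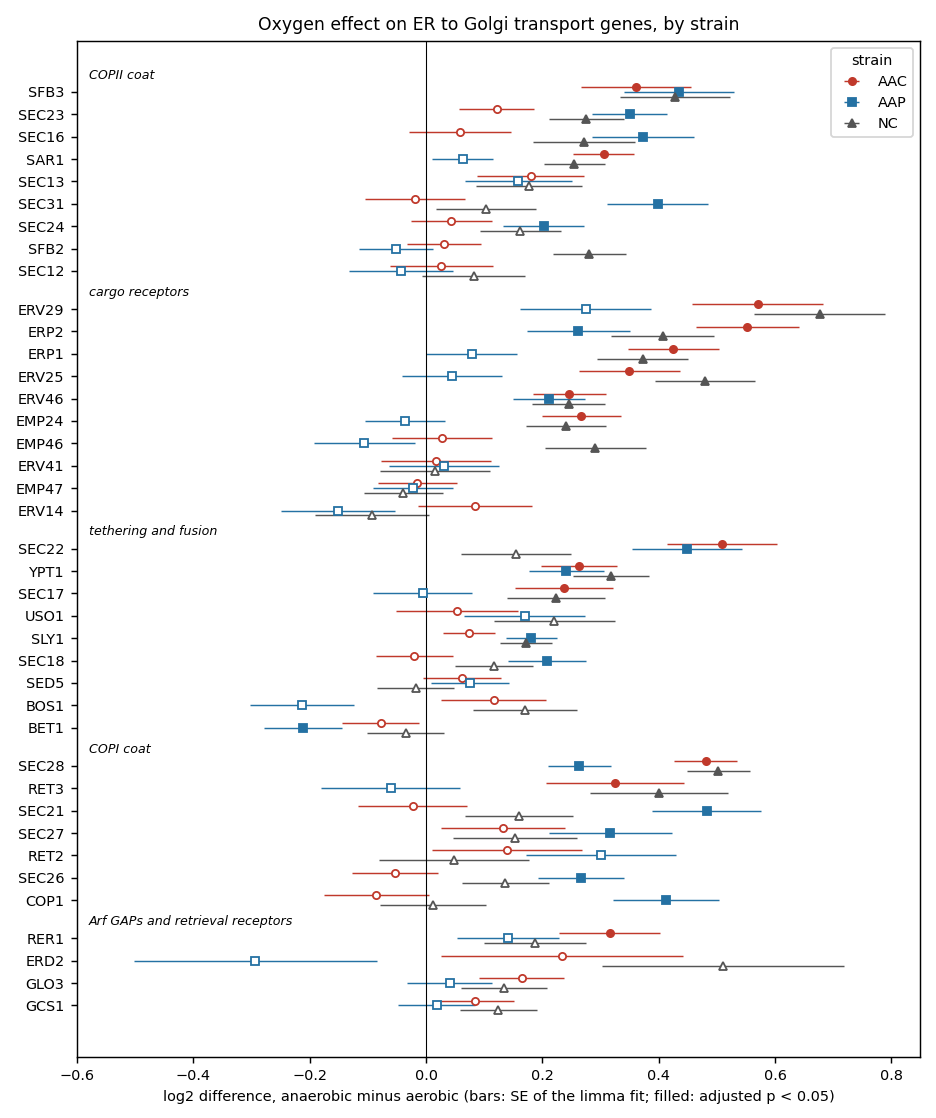
Log2 difference between anaerobic and aerobic cultures (horizontal axis) for each of the 39 members, grouped by class and given separately for strains AAC, AAP and NC. Points are limma estimates from 3 against 3 arrays, bars their standard errors, and filled points those with an adjusted p under 0.05. Most points lie right of 0, with ERV29 in NC the farthest at 0.68.

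Of the COPII coat, 7 of 9 genes rose: SAR1, SEC13, SEC16, SEC23, SEC24, SEC31 and SFB3. The class median was a log2 difference of 0.17. SFB3, a Sec24 homologue known for packing the plasma membrane proton pump Pma1, had signals of 9.03, 8.98 and 8.99 in anaerobic AAC, 8.91, 8.93 and 8.98 in anaerobic AAP, and 9.14, 8.82 and 8.56 in anaerobic NC. Its aerobic signals were 8.65, 8.59 and 8.69 in AAC, 8.55, 8.45 and 8.51 in AAP, and 8.47, 8.38 and 8.38 in NC. Within each strain every anaerobic array lay above every aerobic one, and the mean rise was 1.33-fold (log2 0.41, SE 0.0546, limma adjusted p 9.06e-06).

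SAR1, the GTPase that starts coat assembly, had 10.22, 10.26 and 10.08 in anaerobic AAC, 9.94, 9.996 and 10.14 in anaerobic AAP, and 10.19, 10.12 and 10.14 in anaerobic NC. The aerobic arrays gave 9.90, 9.87 and 9.87 in AAC, 9.99, 9.95 and 9.95 in AAP, and 9.89, 9.93 and 9.87 in NC. The mean log2 rise was 0.21 (SE 0.0303, limma adjusted p 2.23e-05), and the anaerobic and aerobic arrays of AAP overlapped while those of AAC and of NC did not. SEC23, the GTPase-activating subunit of the inner layer, had 8.73, 8.65 and 8.77 in anaerobic AAC, 8.98, 9.00 and 8.79 in anaerobic AAP, and 8.89, 8.68 and 8.66 in anaerobic NC. With oxygen it had 8.60, 8.64 and 8.55 in AAC, 8.61, 8.60 and 8.51 in AAP, and 8.52, 8.44 and 8.43 in NC. The lowest anaerobic array lay just above the highest aerobic one, and the mean log2 rise was 0.25 (SE 0.0376, limma adjusted p 3.13e-05).

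SEC24, the main cargo-binding subunit, had 8.47, 8.45 and 8.35 in anaerobic AAC, 8.54, 8.55 and 8.28 in anaerobic AAP, and 8.39, 8.38 and 8.26 in anaerobic NC. Its aerobic values were 8.31, 8.41 and 8.41 in AAC, 8.36, 8.22 and 8.18 in AAP, and 8.20, 8.14 and 8.20 in NC. The groups overlapped in AAC and AAP, and the mean log2 rise was 0.14 (SE 0.0404, limma adjusted p 0.00848). SEC16, which scaffolds ER exit sites, rose by 0.23, SEC13 by 0.17 and SEC31 by 0.16 on the log2 scale.

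The COPII genes that did not pass were SEC12 and SFB2. SEC12, the exchange factor that loads Sar1 with GTP, had 6.90, 6.83 and 7.09 in anaerobic AAC, 6.91, 6.81 and 6.60 in anaerobic AAP, and 6.91, 6.92 and 6.85 in anaerobic NC. Its aerobic arrays read 7.0004, 6.94 and 6.81 in AAC, 6.93, 6.89 and 6.63 in AAP, and 6.78, 6.85 and 6.80 in NC. Groups overlapped in AAC and AAP, and the log2 difference was 0.02 with a 95% interval of -0.09 to 0.13. SFB2, the other Sec24 homologue, differed by 0.09 (limma adjusted p 0.051), and by 0.10 with the array labelled AAP aerobic replicate 3 left out (adjusted p 0.0167).

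**Figure D2:**
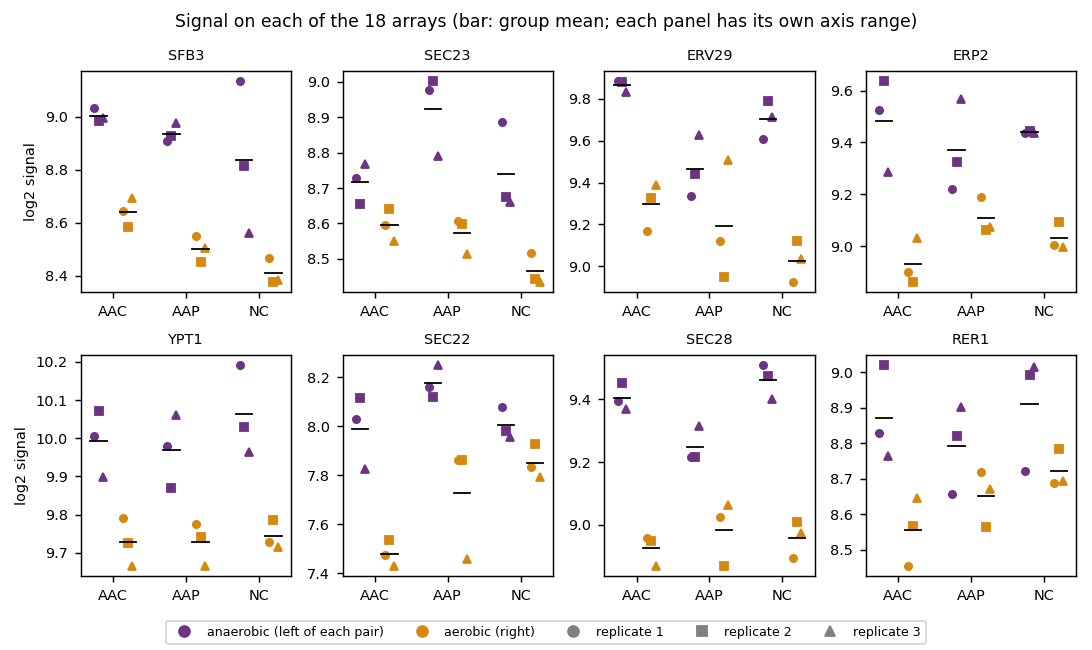
Log2 signal (vertical axis, own range per panel) of 8 members on each of the 18 arrays, with anaerobic arrays left of aerobic ones in each strain and the replicate shown by the symbol. Horizontal bars are group means. For SEC28 and YPT1 all 9 anaerobic arrays lie above all 9 aerobic ones, and for SEC22 the aerobic AAC arrays and the array labelled AAP aerobic replicate 3 lie lowest.

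Among the cargo receptors, 6 of 10 rose: ERV29, ERP2, ERP1, ERV25, ERV46 and EMP24. The class median was a log2 difference of 0.20. ERV29 encodes the receptor that carries soluble cargo, the alpha factor precursor among it, into COPII vesicles. Its signals were 9.89, 9.88 and 9.83 in anaerobic AAC, 9.34, 9.44 and 9.63 in anaerobic AAP, and 9.61, 9.79 and 9.71 in anaerobic NC. The aerobic cultures had 9.17, 9.33 and 9.39 in AAC, 9.12, 8.95 and 9.51 in AAP, and 8.92, 9.12 and 9.04 in NC. Anaerobic arrays lay above the aerobic ones in AAC and NC, whereas in AAP the array labelled AAP aerobic replicate 3 lay above 2 of the 3 anaerobic arrays. The mean rise was 1.42-fold (log2 0.51, SE 0.0649, limma adjusted p 5.56e-06), the largest of the 39, and 0.56 on the log2 scale without that array.

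ERP1, ERP2, EMP24 and ERV25 encode p24 proteins, which form a complex that loads lipid-anchored proteins, and all 4 rose. ERP2 had 9.53, 9.64 and 9.29 in anaerobic AAC, 9.22, 9.32 and 9.57 in anaerobic AAP, and 9.44, 9.44 and 9.44 in anaerobic NC. Aerobically it had 8.90, 8.86 and 9.03 in AAC, 9.19, 9.06 and 9.07 in AAP, and 9.01, 9.09 and 9.00 in NC. No aerobic array reached the lowest anaerobic one, and the mean log2 rise was 0.41 (SE 0.0509, limma adjusted p 4.36e-06). ERP1 and ERV25 each rose by 0.29 and EMP24 by 0.16 on the log2 scale.

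ERV46, which with Erv41 forms a receptor that returns some ER residents, had 9.07, 8.98 and 8.96 in anaerobic AAC, 8.96, 9.04 and 9.10 in anaerobic AAP, and 9.00, 9.11 and 9.10 in anaerobic NC. The aerobic values were 8.69, 8.76 and 8.82 in AAC, 8.72, 8.83 and 8.92 in AAP, and 8.78, 8.93 and 8.76 in NC. Anaerobic and aerobic arrays did not overlap, and the mean log2 rise was 0.23 (SE 0.0361, limma adjusted p 3.83e-05). Its partner ERV41 differed by 0.02 (95% interval -0.10 to 0.13) and was not called. ERV14, a receptor for many plasma membrane proteins, and EMP47, a lectin-like receptor for glycoproteins, were not called either, with log2 differences of -0.05 and -0.03. EMP46, the paralogue of EMP47, differed by 0.07 (adjusted p 0.236) and by 0.11 with the array labelled AAP aerobic replicate 3 left out (adjusted p 0.0353).

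In the tethering and fusion class 6 of 9 genes rose, 1 fell and 2, BOS1 and SED5, were not called. YPT1, the Rab GTPase of this step, had 10.005, 10.07 and 9.90 in anaerobic AAC, 9.98, 9.87 and 10.06 in anaerobic AAP, and 10.19, 10.03 and 9.96 in anaerobic NC. Its aerobic signals lay at 9.79, 9.73 and 9.67 in AAC, 9.78, 9.74 and 9.67 in AAP, and 9.73, 9.79 and 9.72 in NC. All anaerobic arrays lay above all aerobic ones, and the mean log2 rise was 0.27 (SE 0.0375, limma adjusted p 1.16e-05).

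SEC22 encodes the SNARE that serves both directions of ER to Golgi traffic. It had 8.03, 8.11 and 7.83 in anaerobic AAC, 8.16, 8.12 and 8.25 in anaerobic AAP, and 8.08, 7.98 and 7.96 in anaerobic NC. Aerobic cultures gave 7.48, 7.54 and 7.43 in AAC, 7.86, 7.86 and 7.46 in AAP, and 7.83, 7.93 and 7.79 in NC. The anaerobic arrays lay above the aerobic ones within each strain, and the aerobic AAC arrays and the array labelled AAP aerobic replicate 3 were the lowest of all. The mean log2 rise was 0.37 (SE 0.0546, limma adjusted p 2.45e-05) and 0.33 without that array.

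SLY1, which encodes the regulator that binds the SNARE Sed5, had 7.47, 7.50 and 7.51 in anaerobic AAC, 7.64, 7.64 and 7.59 in anaerobic AAP, and 7.57, 7.66 and 7.47 in anaerobic NC. In the aerobic arrays it read 7.44, 7.41 and 7.40 in AAC, 7.50, 7.44 and 7.40 in AAP, and 7.40, 7.42 and 7.37 in NC. Each strain's anaerobic arrays were the higher ones, and the mean log2 rise was 0.14 (SE 0.0256, limma adjusted p 0.000173). USO1, the long coiled-coil tether, and SEC17, the yeast alpha-SNAP, each rose by 0.15 on the log2 scale. SEC18, the NSF ATPase that takes SNARE complexes apart, had 7.96, 7.96 and 7.90 in anaerobic AAC, 8.10, 8.19 and 7.94 in anaerobic AAP, and 8.14, 8.05 and 7.94 in anaerobic NC. It had 7.91, 7.96 and 8.005 in aerobic AAC, 7.95, 7.92 and 7.75 in aerobic AAP, and 7.95, 7.90 and 7.92 in aerobic NC. The arrays overlapped in each strain, and its log2 rise of 0.10 (limma adjusted p 0.0322) was lost with the array labelled AAP aerobic replicate 3 left out (0.08, adjusted p 0.0564).

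BET1, a SNARE of the ER-derived vesicle, was the member that fell. It had 7.23, 7.41 and 7.32 in anaerobic AAC, 7.29, 7.22 and 7.27 in anaerobic AAP, and 7.38, 7.47 and 7.65 in anaerobic NC. Aerobic values were 7.34, 7.47 and 7.39 in AAC, 7.55, 7.41 and 7.45 in AAP, and 7.46, 7.56 and 7.58 in NC. Only in AAP did the groups not overlap, and the mean log2 difference was -0.11 (SE 0.0384, limma adjusted p 0.0229). The call was lost in the fits without AAC anaerobic replicate 1 or without AAC aerobic replicate 2, with an adjusted p of up to 0.052. Besides SEC22, which rose, the other listed SNAREs of this fusion step were BOS1 and SED5. Their log2 differences were 0.02 (95% interval -0.09 to 0.13) and 0.04 (-0.05 to 0.12).

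Of the COPI coat, 5 of 7 genes rose: SEC21, SEC26, SEC27, SEC28 and RET3, the gamma, beta, beta', epsilon and zeta subunits. SEC28 had 9.40, 9.45 and 9.37 in anaerobic AAC, 9.21, 9.22 and 9.31 in anaerobic AAP, and 9.51, 9.47 and 9.40 in anaerobic NC. Aerobic arrays had 8.96, 8.95 and 8.87 in AAC, 9.02, 8.87 and 9.06 in AAP, and 8.89, 9.01 and 8.97 in NC. These groups were apart in every strain, and the rise of 1.33-fold (log2 0.42, SE 0.0313, limma adjusted p 1.04e-08) had the smallest p among the 39 members.

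SEC21 had 8.50, 8.44 and 8.29 in anaerobic AAC, 8.87, 8.85 and 8.65 in anaerobic AAP, and 8.73, 8.37 and 8.29 in anaerobic NC. Its aerobic values were 8.39, 8.45 and 8.46 in AAC, 8.36, 8.34 and 8.23 in AAP, and 8.36, 8.26 and 8.29 in NC. AAP was the strain whose anaerobic arrays stood clear of its aerobic ones, and the mean log2 rise was 0.21 (SE 0.0537, limma adjusted p 0.00354). SEC27 had 8.52, 8.51 and 8.28 in anaerobic AAC, 8.65, 8.68 and 8.41 in anaerobic AAP, and 8.69, 8.36 and 8.31 in anaerobic NC. Aerobically its signals were 8.25, 8.34 and 8.33 in AAC, 8.39, 8.33 and 8.06 in AAP, and 8.35, 8.29 and 8.26 in NC. The AAP groups did not overlap while those of AAC and NC did, and the mean log2 rise was 0.20 (SE 0.0613, limma adjusted p 0.01). RET3 rose by 0.22 and SEC26 by 0.12. COP1 and RET2, the alpha and delta subunits, differed by 0.11 (adjusted p 0.0739) and 0.16 (adjusted p 0.0703) and were not called.

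Of the 4 Arf GTPase-activating proteins and retrieval receptors, RER1 and GLO3 rose. RER1, which retrieves ER membrane proteins, had 8.83, 9.02 and 8.76 in anaerobic AAC, 8.66, 8.82 and 8.90 in anaerobic AAP, and 8.72, 8.99 and 9.01 in anaerobic NC. Its aerobic arrays were at 8.45, 8.57 and 8.65 in AAC, 8.72, 8.57 and 8.67 in AAP, and 8.69, 8.78 and 8.69 in NC. The AAC groups were apart and the others overlapped, and the mean log2 rise was 0.21 (SE 0.0505, limma adjusted p 0.00169).

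GLO3, which triggers uncoating of COPI vesicles, had 8.44, 8.39 and 8.58 in anaerobic AAC, 8.43, 8.39 and 8.13 in anaerobic AAP, and 8.34, 8.42 and 8.45 in anaerobic NC. It read 8.30, 8.32 and 8.28 in aerobic AAC, 8.37, 8.25 and 8.21 in aerobic AAP, and 8.25, 8.36 and 8.20 in aerobic NC. Its log2 rise of 0.11 (limma adjusted p 0.0311) missed the threshold with the array labelled AAP aerobic replicate 3 left out (0.10, adjusted p 0.0512). GCS1, the other GTPase-activating protein, differed by 0.08 (95% interval -0.00 to 0.16). ERD2, the receptor for the HDEL retrieval signal, differed by 0.15 with an interval of -0.10 to 0.41, the widest among the members.

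With each array left out in turn, 22 of the 27 called members stayed called in all 18 fits. Besides BET1, the exceptions were USO1, lost in 12 fits, SEC18 and GLO3, lost in 10 each, and SEC26, lost in 6, with adjusted p up to 0.0944 for USO1. The matching share over all called probe sets is not given, so these counts are not results about the members. Annotated length is the distance from start to stop codon. Its log2 had a correlation of -0.04 with the mean log2 difference over the 39 members and -0.02 over all probe sets.

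Taken strain by strain, 14 members rose and none fell in AAC, 16 rose and 1 fell in AAP, and 17 rose and none fell in NC. The members called higher were 35.9% in AAC, 41% in AAP and 43.6% in NC, beside 21.7%, 21.2% and 22.2% of all probe sets called higher. Called lower were 22.8%, 17.2% and 28% of all probe sets in AAC, AAP and NC, and called either way 44.5%, 38.4% and 50.3%. With the array labelled AAP aerobic replicate 3 left out, the AAP count was 13 higher and 1 lower, beside 41.9% of all probe sets called either way. SFB3, SEC28, YPT1, ERV46 and ERP2 rose in all 3 strains. SFB3, SEC28 and YPT1 kept these calls when any 1 of a strain's 6 arrays was left out. In AAP the call of ERV46 was lost without AAP anaerobic replicate 3 or AAP aerobic replicate 1, with an adjusted p of up to 0.0737. That of ERP2 was lost without AAP anaerobic replicate 3, AAP aerobic replicate 2 or the array labelled AAP aerobic replicate 3, with an adjusted p of up to 0.153. ERV29 was called in AAP once the last of these was left out. In NC, which uses that array for the pooled variance alone, ERD2 was then called too (log2 0.51, limma adjusted p 0.041). The NC count was then 18, beside 56.2% of all probe sets called either way.

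Other members were called in 1 or 2 strains. SAR1, ERV25, ERV29, ERP1, EMP24, SEC17 and RET3 were called in AAC and NC but not in AAP. SEC17 lost its call in 4 of the 6 fits that left out an array of AAC and in 5 of 6 for NC, and RET3 in 5 of 6 for AAC and 2 of 6 for NC. SEC24, SEC31, SEC18, COP1, SEC21, SEC26 and SEC27 were called in AAP alone, although SEC24, SEC18 and SEC27 were not once the array labelled AAP aerobic replicate 3 was left out. Of the 6 fits that left out an AAP array, SEC24 lost its call in 4 and SEC18 and SEC27 in 3 each. Of the 10 cargo receptors 6 rose in AAC, 2 in AAP and 7 in NC, whereas of the 7 COPI subunits 2 rose in AAC, 5 in AAP and 2 in NC. COPII genes numbered 2 in AAC, 5 in AAP and 5 in NC, and fusion genes 3, 4 and 3. With the array labelled AAP aerobic replicate 3 left out, the AAP counts of COPII, fusion and COPI genes lost SEC24, SEC18 and SEC27 respectively. Among the cargo receptors ERP2 then left the AAP count and ERV29 joined it. A call in 1 strain and not in another does not show a difference between them, and the tests of that difference follow the strain comparisons.

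These lists also differed in the length of their genes. Of the 14 members that rose in AAC, 2 were longer than the members' median length of 1152 bp, whereas 12 of the 16 that rose in AAP and 7 of the 17 in NC were. Over the 39 members, log2 length had a correlation of -0.54 with the log2 difference in AAC, 0.54 in AAP and -0.15 in NC. The values over all probe sets were -0.10, 0.10 and -0.05. Of the 13 that rose in AAP with the array labelled AAP aerobic replicate 3 left out, 9 were longer, and the correlation was 0.52 over the members and 0.07 over all probe sets. With a trend on length removed from each array, 17 rose and 1 fell in AAC, 14 rose and 1 fell in AAP, and 21 rose in NC, beside 45.6%, 41% and 53.3% of all probe sets called either way. The part of length in the strain lists beyond that was not tested.

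In aerobic cultures AAC, labelled as the high producer, differed from NC in 3 of 39 members: EMP46 and SFB2 were higher and SEC22 was lower. That is 7.69% of members beside 19.4% of all probe sets called, 9.42% as higher and 9.99% as lower. SEC22, whose arrays are given above, had means of 7.48 in AAC and 7.85 in NC without overlap, a log2 difference of -0.37 (SE 0.0946, limma adjusted p 0.0145). The call was lost without AAC aerobic replicate 3 or without NC aerobic replicate 2, with an adjusted p of up to 0.0638.

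EMP46 had 6.35, 6.29 and 6.47 in aerobic AAC, 6.17, 6.11 and 6.45 in aerobic AAP, and 6.10, 6.05 and 6.15 in aerobic NC. SFB2 had 7.28, 7.25 and 7.26 in aerobic AAC, 7.22, 7.04 and 7.28 in aerobic AAP, and 7.07, 7.03 and 7.05 in aerobic NC. For both genes the AAC arrays lay above the NC arrays, and the array labelled AAP aerobic replicate 3 lay with AAC. The log2 differences were 0.27 for EMP46 (limma adjusted p 0.0424) and 0.21 for SFB2 (adjusted p 0.0287). Each was lost when any of the 6 arrays compared was left out, with adjusted p up to 0.154 and 0.0903. With the array labelled AAP aerobic replicate 3 left out, which changes this comparison through the pooled variance alone, 5 members were called beside 30% of all probe sets: ERV29 (log2 0.27, adjusted p 0.0181) and SEC24 (0.20, adjusted p 0.0391) were then higher too.

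The other aerobic comparisons called no member with limma. AAP against NC had 0.2% of all probe sets called. None of the 39 members had an unadjusted p under 0.05, beside 9.37% of all probe sets. AAC against AAP had 3.97% called. SEC22 was the 1 member with an unadjusted p under 0.05 (log2 -0.25), beside 21.2% of all probe sets. With the array labelled AAP aerobic replicate 3 left out, AAP against NC still called none of the 39 (0.6% of all). AAC against AAP then called 4 (28.1% of all): ERV29 and EMP46 were higher in AAC, with log2 differences of 0.26 and 0.23, and SEC22 and GCS1 lower, with -0.38 and -0.17.

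Without oxygen AAC and NC differed in no member with limma, beside 12% of all probe sets called. BET1, USO1 and GCS1 had an unadjusted p under 0.05, with log2 differences of -0.18, -0.27 and -0.17. Of all probe sets 26.8% had an unadjusted p under 0.05. With the array labelled AAP aerobic replicate 3 left out, which is in neither group, GCS1 was called (adjusted p 0.037) beside 19.4% of all probe sets. Without AAC anaerobic replicate 3, 1 member was called (14.5% of all probe sets), and without NC anaerobic replicate 1, 4 were (18.9%).

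AAP against NC in anaerobic cultures called 11 members, 3 higher and 8 lower, that is 28.2% of members beside 21% of all probe sets. Of all probe sets 12.9% were called higher and 8.06% lower, and of the members 7.69% higher and 20.5% lower. The coat genes SEC31, COP1 and SEC21 were higher in AAP. SEC31, the outer COPII cage, had 8.89, 8.93 and 8.56 in anaerobic AAP, against 8.53, 8.35 and 8.36 in anaerobic NC, a log2 difference of 0.38 (SE 0.0862, limma adjusted p 0.00881). COP1 had 9.15, 9.22 and 9.13 in AAP, against 9.09, 8.80 and 8.69 in NC (log2 0.31, adjusted p 0.0293). The arrays of SEC31 and COP1 did not overlap between the strains, whereas SEC21, higher by 0.33 (adjusted p 0.0238), overlapped through NC anaerobic replicate 1.

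ERD2, RET3, BOS1, ERV25, EMP46, BET1, SEC28 and SFB2 were lower in anaerobic AAP than in anaerobic NC. ERD2 had 8.10, 8.32 and 8.22 in AAP, against 8.23, 9.00 and 9.25 in NC, a log2 difference of -0.61 (SE 0.208, limma adjusted p 0.0484). RET3 had 8.81, 8.82 and 8.87 in AAP, against 8.90, 9.41 and 9.45 in NC, a difference of -0.42 (SE 0.119, adjusted p 0.0232). NC anaerobic replicate 1 lay near the AAP arrays for both genes, and its fission yeast tpi1 signal of 7.29 was the highest of the NC arrays. The other 6 had log2 differences of -0.20 (SFB2) to -0.32 (BOS1).

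How many members were called here depended on single arrays, as did the share of all probe sets called. The count was 1, SEC31, without AAP anaerobic replicate 1 (8.64% of all probe sets called), AAP anaerobic replicate 2 (11.2%) or NC anaerobic replicate 2 (8%). It was 2 without NC anaerobic replicate 3 (8.97%). Without AAP anaerobic replicate 3 it was 12 (16.4%), and without NC anaerobic replicate 1 it was 16 (31.5%). With the array labelled AAP aerobic replicate 3 left out it was 14 (31.8%), SEC23 then being called higher and ERV29 and EMP24 lower. SEC31 was called in all 6 fits that left out an array of either group.

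AAC against AAP in anaerobic cultures, which shares the AAP arrays with the preceding comparison, called 15 members, 9 higher and 6 lower, 38.5% of members beside 33% of all probe sets, of which 13.3% were called higher and 19.7% lower. SAR1, ERV29, ERP1, EMP24, EMP46, BOS1, SEC17, SEC28 and RET3 were higher in AAC, and SEC31, COP1, SEC21, SEC26, SEC23 and SLY1 were lower. ERV29, with the array values given above, averaged 9.87 in AAC and 9.47 in AAP without overlap (log2 0.40, SE 0.112, limma adjusted p 0.014). SEC31 had 8.43, 8.32 and 8.31 in AAC, against 8.89, 8.93 and 8.56 in AAP (log2 -0.44, SE 0.0862, limma adjusted p 0.00187).

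COP1 had 8.89, 8.75 and 8.67 in anaerobic AAC, against 9.15, 9.22 and 9.13 in anaerobic AAP (log2 -0.39, SE 0.091, limma adjusted p 0.00484). For SEC21 the means were 8.41 in AAC and 8.79 in AAP (log2 -0.38, SE 0.093, limma adjusted p 0.00646). The AAC arrays lay below the AAP arrays for all 3 of these coat genes. SEC31, EMP24, COP1 and SEC21 were called in all 6 fits that left out an array of either group, and ERV29 was lost without AAP anaerobic replicate 1 (adjusted p 0.0689). The count was 4 without AAP anaerobic replicate 1 (21.2% of all probe sets called). It was 5 without AAC anaerobic replicate 2 (23.6%) or AAP anaerobic replicate 2 (23.3%). With the array labelled AAP aerobic replicate 3 left out it was 17 (41.4%), SFB2 then being called higher in AAC and SEC22 lower.

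**Figure D3:**
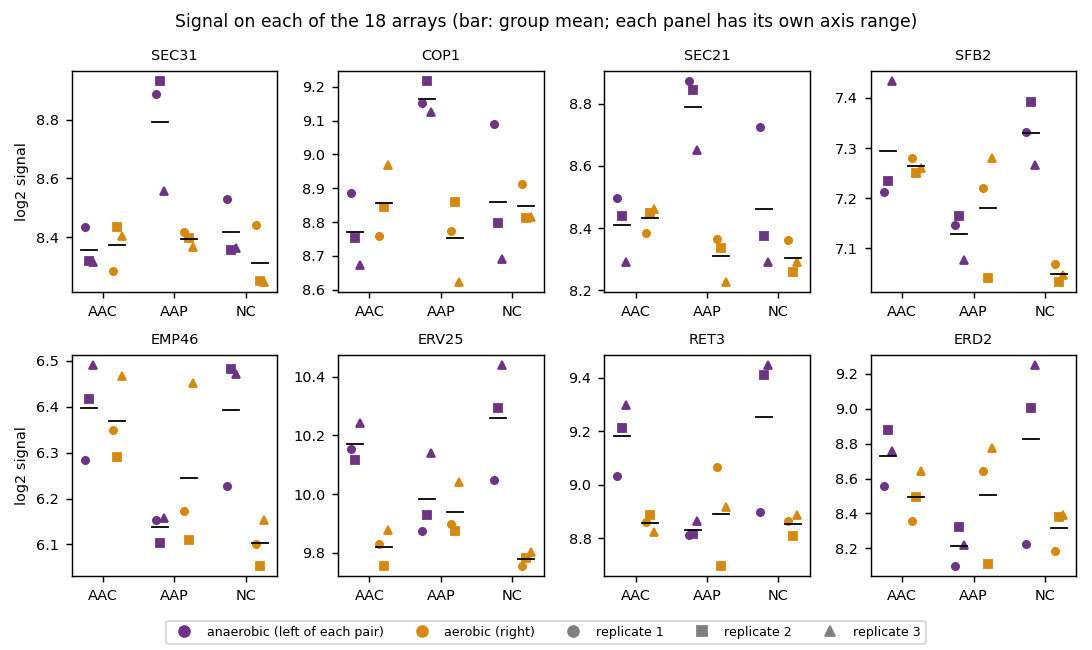
Log2 signal (vertical axis, own range per panel) of 8 members on each of the 18 arrays, with anaerobic arrays left of aerobic ones in each strain and the replicate shown by the symbol. Horizontal bars are group means. SEC31, COP1 and SEC21 are highest in anaerobic AAP, while for RET3 and ERD2 replicate 1 of anaerobic NC lies apart from the other two.

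The direction of these anaerobic strain differences went with gene length. In AAP against NC, the 3 genes called higher were all longer than 1152 bp, SEC31 at 3822, COP1 at 3606 and SEC21 at 2808 bp, and 6 of the 8 called lower were not. The correlation of the log2 difference with log2 length was 0.63 over the members and 0.29 over all probe sets, and in AAC against AAP it was -0.65 and -0.33. These points share arrays and the 39 genes are not replicates, so the correlations are descriptions. With a trend on length removed from each array, AAP against NC called 7 members, 1 higher and 6 lower (22.2% of all probe sets), and AAC against AAP called 9, 6 higher and 3 lower (32.2%). SEC31 kept its call in both, at 0.26 (adjusted p 0.0165) and -0.27 (adjusted p 0.00993), while in AAP against NC COP1 fell short at 0.20 (adjusted p 0.0821) and SEC21 at 0.22 (adjusted p 0.0594).

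**Figure D4:**
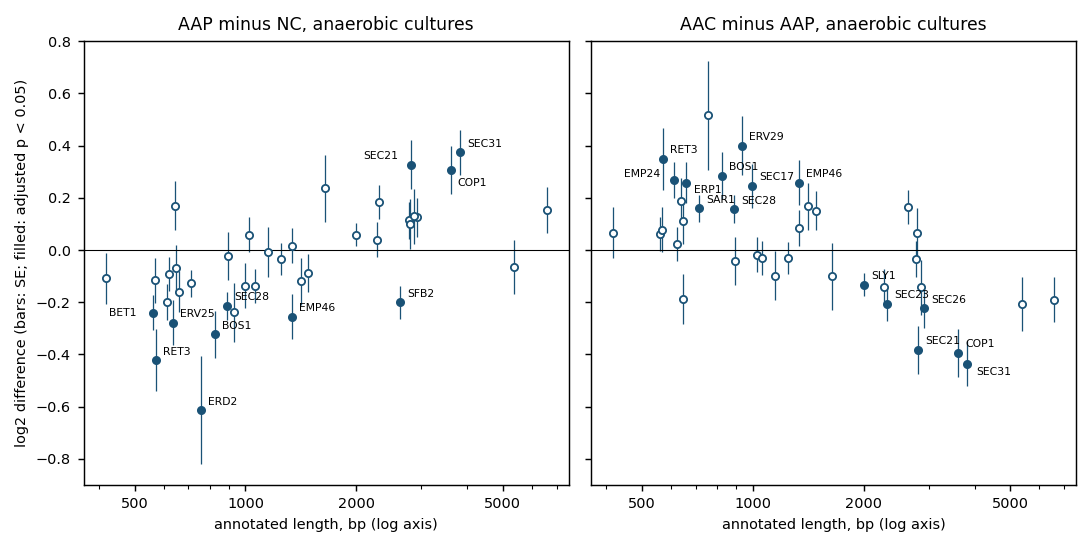
Log2 difference between strains in anaerobic cultures (vertical axis; left AAP minus NC, right AAC minus AAP) against annotated gene length in bp (horizontal log axis) for the 39 members. Bars are standard errors and filled points have an adjusted p under 0.05. Long genes such as SEC31, COP1 and SEC21 lie above 0 in the left panel and below 0 in the right one.

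The interaction terms ask whether the oxygen effect itself differed between strains. AAC and NC differed in no member with limma (2.87% of all probe sets called). SFB2, SEC22 and EMP46 had an unadjusted p under 0.05, beside 18.7% of all probe sets. With the array labelled AAP aerobic replicate 3 left out, which is in neither strain, SEC22 was called, beside 12.1% of all probe sets: its oxygen effect was larger in AAC than in NC by 0.35 on the log2 scale (adjusted p 0.0202).

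AAP and NC differed in 3 members, all with a lower oxygen effect in AAP (4.47% of all probe sets were called lower and 12.5% either way). ERV25 had 9.88, 9.93 and 10.14 in anaerobic AAP, against 9.90, 9.88 and 10.04 in aerobic AAP, and 10.05, 10.29 and 10.44 in anaerobic NC, against 9.76, 9.78 and 9.80 in aerobic NC. Its oxygen effect was 0.04 in AAP and 0.48 in NC, a difference of -0.44 (SE 0.122, limma adjusted p 0.0336). SFB2 had 7.15, 7.16 and 7.08 in anaerobic AAP and 7.33, 7.39 and 7.27 in anaerobic NC, with the aerobic arrays given above, and its oxygen effect was -0.05 in AAP and 0.28 in NC (difference -0.33, adjusted p 0.0302). EMP46 had 6.15, 6.10 and 6.16 in anaerobic AAP and 6.23, 6.48 and 6.47 in anaerobic NC, with oxygen effects of -0.11 in AAP and 0.29 in NC (difference -0.40, adjusted p 0.0462). For all 3 genes the anaerobic and aerobic arrays overlapped in AAP and did not in NC.

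AAC and AAP differed in COP1 and SEC21 (3.55% of all probe sets called, 2.15% as lower). COP1 had 8.76, 8.84 and 8.97 in aerobic AAC and 8.77, 8.86 and 8.62 in aerobic AAP, and its oxygen effect was -0.09 in AAC and 0.41 in AAP (difference -0.50, SE 0.129, limma adjusted p 0.0447). The effect on SEC21 was -0.02 in AAC and 0.48 in AAP (difference -0.51, SE 0.132, adjusted p 0.0458). Only in AAP did these COPI genes separate the anaerobic arrays from the aerobic ones. All 5 differences missed the threshold with the array labelled AAP aerobic replicate 3 left out, with adjusted p of 0.0553 to 0.0833. Of all probe sets 9.91% were then called for AAP and NC and 5.2% for AAC and AAP. The correlation of this interaction with log2 gene length was -0.81 over the members and -0.49 over all probe sets. With the trend on length removed COP1 was at -0.32 (limma adjusted p 0.17) and SEC21 at -0.34 (adjusted p 0.147).

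Neighbouring steps of the pathway were read from 5 further lists of 72 genes, 71 of them measured. In the mean oxygen effect 41 of the 71 rose and 2 fell, beside the 31.2% and 30.4% of all probe sets. The counts were 41 and 3 with the array labelled AAP aerobic replicate 3 left out. The list of the Dsl1 tether, the Golgi matrix and the conserved oligomeric Golgi complex had 12 of 15 higher and none lower. GRH1, the yeast GRASP protein, had 8.95, 8.85 and 8.47 in anaerobic AAC, 8.63, 8.61 and 8.70 in anaerobic AAP, and 8.94, 8.57 and 8.46 in anaerobic NC. Its aerobic signals were 7.79, 7.74 and 7.76 in AAC, 7.86, 7.74 and 7.81 in AAP, and 7.62, 7.76 and 7.71 in NC. All anaerobic arrays stood above all aerobic ones, and the rise of 1.91-fold (log2 0.93, SE 0.0659, limma adjusted p 4.88e-09) exceeded the estimate for any of the 39 members. BUG1, which encodes the coiled-coil partner of Grh1, rose by 0.57 (1.48-fold, SE 0.0277, adjusted p 4.40e-11).

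Of the TRAPP tethering complexes, 5 of 10 genes rose, BET3 by 0.28, BET5 by 0.22 and TRS120 by 0.13. Among 15 other p24 and Erv adaptors 5 rose and 1 fell, with ERP5 at 0.19 and the permease chaperone gene SHR3 at -0.14. Those 5 of 15 lie near the 31.2% of all probe sets called higher. Among 15 other SNARE, Rab and Arf genes 8 rose and 1 fell, with GOS1 at 0.33, SEC20 at 0.24, YPT31 at 0.35 and USE1 at -0.14. Of 16 genes of the later step from the Golgi to the plasma membrane 11 rose and none fell, with the syntaxin gene SSO2 at 0.46 and the exocyst genes SEC3 at 0.35 and SEC8 at 0.18. In AAC against NC in aerobic cultures 3 of the 71 were called, beside 19.4% of all probe sets called, 9.99% as lower. These were BET5 at -0.19, ERP4 at -0.21 and GEA1 at -0.20, all lower in AAC. There were 1 higher and 6 lower with the array labelled AAP aerobic replicate 3 left out, beside 30% of all probe sets called.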

How the data were processed

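Biotin-labelled cRNA from 250 ng of total RNA per culture was hybridised, per the labels' protocols. The deposited log2 values, 1 per probe set and array, range from 4.85 to 12.81. Their scale was read from this range, and a fold change rests on that reading. Per the submitters' processing notes, PLIER and R 2.10.1 were used. The sources used here do not give the background correction, the normalization or the logarithm. The number of arrays limits the precision.

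Genes were named from the platform annotation and a current gene table. Budding yeast probe sets with 1 gene, 5498 in all, were fitted with limma 3.58.1 in R 4.3.3 (lmFit, eBayes) with 1 mean per group over 18 arrays. The p-values of 13 contrasts are two-sided and were adjusted by Benjamini and Hochberg within each contrast over all 5498 probe sets, at a threshold of 0.05. Members, lists, tests and alternatives were chosen with earlier results of these data known. Any member could be named, and array values are given for up to 3 called members with the smallest p per class, up to 4 with the largest difference per strain comparison, and a few genes always taken.

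Alternatives were quantile normalization, median centring, a filter on dim probe sets, gene means, a trended and robust eBayes prior, fits to the compared groups alone, a replicate block, leaving out each array, and removing a trend on length (loess, span 0.5). After seeing the data, the length trend was also removed together with the block, and together with omission of the array labelled AAP aerobic replicate 3. Simulated data were used to test the procedure. No label ties a replicate number to a shared batch. Between groups, deviations from the group means correlated above 0.1 for all 3 pairs of equal number only in aerobic cultures, for AAC with NC (0.126, 0.233 and 0.326) and AAC with AAP (0.168, 0.249 and 0.456). The second set includes the array that goes against its label. Anaerobic AAC with anaerobic NC had 0.645, -0.0239 and 0.459, so high values of single pairs were not limited to aerobic cultures. No sequences or coordinates are given, and the planned search of promoter motifs was not run.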

Additional observations from a re-analysis of the deposited data

Results flagged for a closer look

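The oxygen effect differed between strains in 5 members by the interaction term. Against NC, AAP had a lower effect for SFB2 (log2 -0.33, limma adjusted p 0.0302), ERV25 (-0.44, adjusted p 0.0336) and EMP46 (-0.40, adjusted p 0.0462), 7.69% of the members beside 12.5% of all probe sets called. AAC had a lower effect than AAP for the COPI genes COP1 (-0.50, adjusted p 0.0447) and SEC21 (-0.51, adjusted p 0.0458), 5.13% of the members beside 3.55% of all probe sets. All 5 missed the threshold with the array labelled AAP aerobic replicate 3 left out, at adjusted p of 0.0553 to 0.0833. The shares of all probe sets called were then 9.91% for AAP and NC and 5.2% for AAC and AAP. With 1 array left out of the 12 in each such test, the call was lost in 7 fits for SFB2, 8 for ERV25, 9 for EMP46, 8 for COP1 and 10 for SEC21, and the sign was the same in all of them. Groups of 3 arrays were not tested for single arrays that stand apart.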

How the results depend on the processing

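Counts are of members called by limma. With 1 array of the groups compared, or AAP aerobic replicate 3, left out, they were 23 to 28 for the mean oxygen effect, 11 to 14 in AAC, 13 to 16 in AAP and 15 to 19 in NC. Of all probe sets, 58.5% to 66.8%, 35.7% to 51.6%, 32.2% to 41.9% and 43% to 56.2% were called in the same fits. Without NC anaerobic replicate 1 the counts were 15 in AAC and 19 in AAP, beside 47.3% and 41.4% of all probe sets. The oxygen effects of AAC and AAP use that array for the pooled variance alone. In aerobic cultures the counts were 0 to 5 for AAC against NC, 0 to 0 for AAP against NC and 0 to 4 for AAC against AAP. The shares of all probe sets were 10.1% to 30%, 0.0728% to 1.09% and 0.0909% to 28.1%. In anaerobic cultures the counts were 0 to 4, 1 to 16 and 4 to 17 for the same pairs, beside 5.93% to 19.4%, 8% to 31.8% and 21.2% to 41.4% of all probe sets. The interactions gave 0 to 1 for AAC and NC, 0 to 10 for AAP and NC and 0 to 5 for AAC and AAP. Beside these, 1.11% to 12.1%, 4.29% to 24.3% and 1.26% to 7.71% of all probe sets were called. SEC12, not called in any of these, changed sign in the mean oxygen effect, which ran from -0.010 to 0.050 over these fits, at -0.010 without AAP aerobic replicate 3, -0.0030 without AAC anaerobic replicate 3 and -0.0013 without AAP anaerobic replicate 1. The counts that follow are given without the share of all probe sets called in each fit, so they are not results about the members. With only the groups compared, the counts moved to 10 for AAC against NC in aerobic cultures, 3 for AAP against NC in anaerobic cultures, and 1 for the interactions of AAC and of AAP with NC. That fit does not apply to the mean oxygen effect, which uses all groups. With the length trend removed they were 1, 7 and 9 for AAC against NC, AAP against NC and AAC against AAP in anaerobic cultures, and 0 for the interaction of AAC and AAP. The replicate block gave 5 for the interaction of AAP and NC. It lost none of the 3 calls of AAC against NC in aerobic cultures, where it called 4, and moved no other count by over 1.5 times. The block with the length trend removed gave 5 for AAC against NC in aerobic cultures, 1 in anaerobic cultures, 7 for the interaction of AAP and NC and 0 for that of AAC and AAP. Without AAP aerobic replicate 3 and with the length trend removed, the counts were 7 for AAC against NC and 4 for AAC against AAP in aerobic cultures, 2 for AAC against NC in anaerobic cultures, 1 for the interaction of AAC and NC and 0 for that of AAC and AAP. Quantile normalization gave 6 for the interaction of AAP and NC. Median centring gave 1 and a trend and robust prior in eBayes 0 for the interaction of AAC and AAP. The filter on dim probe sets and gene means moved no count by over 1.5 times. The causes were not tested. All members lay above background on all 18 arrays, the lowest signals being 6.05 for EMP46 and for SED5. The part of signal was not tested either.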
